A study of Mus musculus with 15 samples.

Results

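The transcripts of 3 ERBB receptors (Egfr, Erbb2, Erbb3) and 7 EGF family ligands (Egf, Areg, Ereg, Epgn, Btc, Hbegf, Tgfa) were followed across mouse intestinal organoids with different Wnt pathway lesions. The 10 genes are family members listed by name, and all 10 were matched by Ensembl identifier among the 43629 genes of the count table. Organoids are small epithelial cultures grown in a gel from intestinal crypts, here from mice of the C57B6/129 background, and RNA of 15 cultures was sequenced. WT comprised 5 libraries kept in ENR medium (EGF, Noggin and the Wnt agonist RSPO1), of which 4 were APC flox/flox lines numbered 1, 2, 5 and 6 and 1 was a dox-naive culture carrying the inducible Cas9 without its induction. The 4 Apc libraries are of those numbered lines as Apc delta/delta, kept in EN medium, which lacks RSPO1. P-Rspo3 comprised 4 libraries, labelled 15d, 4d, M and F, of cultures with the Cas9-made Ptprk-Rspo3 inversion, also in EN medium.

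Every culture received recombinant EGF, so no group was without an ERBB ligand. The Apc cultures and their WT counterparts differ in both the gene and RSPO1, and the 2 cannot be told apart in the comparisons with WT. Apc and P-Rspo3 share the medium but not the lines. The P-Rspo3 cultures are populations treated with doxycycline and kept without RSPO1, and the dox-naive library is the only WT library that is not of a flox line. Titles and genotype fields leave the group of 2 further libraries unclear, and they entered no group. Nothing in the labels says that the libraries of a group came from separate animals beyond the line numbers, so p-values measure the spread between these libraries.

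ERBB receptors are tyrosine kinases that pair on the cell surface once a ligand binds. EGFR binds all the ligands considered here, and HER2 (Erbb2) has no known ligand and serves as a partner. HER3 (Erbb3) binds some but not all neuregulins and signals mainly through its partners and PI3 kinase. The ligands are made as membrane proteins and are cut free by sheddases, chiefly ADAM10 and ADAM17. In the crypt, Paneth cells supply EGF and TGFA to the neighbouring stem cells, and EGF is a standard component of organoid medium.

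Each grouped library held between 28902729 and 35528495 counts on genes, and the 2 ungrouped libraries held 27466904 and 28234329. In P-Rspo3 the Rspo3 gene had 539 to 1079 counts per library against 0 to 1 in WT. The count of the Apc gene was higher in Apc libraries (9265 to 10953) than in WT (4046 to 6810), but a count over the whole gene does not show the loss of an exon and checks nothing of the deletion. The epithelial markers Epcam and Krt8 had mean FPKM of 369 and 488 in Apc and 346 and 499.5 in WT. On counts, Epcam (log2 fold change -0.18), Krt8 (-0.31) and Krt19 (-0.81) were lower in Apc than in WT and Cdh1 (0.24) was higher. Each had an adjusted p under 0.05 in edgeR's quasi-likelihood test but was not called. In all 3 groups the stromal list summed to at most 0.633 FPKM. At this low level, Pdgfra was called higher in Apc (54 to 73 counts) than in WT (0 to 4). Pdgfrb was called lower in Apc (0 to 8 counts) than in WT (18 to 39). Of the endothelial genes, Kdr was at 0 in every grouped library, Cdh5 had 217 to 372 counts in Apc and none in WT or P-Rspo3, and Pecam1 was called lower in Apc (3 to 10 counts) than in WT (21 to 36). The 8 enterocyte markers summed to 36.9 to 66.9 FPKM in Apc, 3487 to 9977 in WT and 2465 to 5513 in P-Rspo3, and all 8 were called lower in Apc than in either other group. The 8 Paneth cell markers summed to 724 to 1799 FPKM in Apc, 6243 to 9911 in WT and 3621 to 8266 in P-Rspo3. Of the Paneth cell markers, 5 were called lower and 2 (Mmp7, Pla2g2a) higher in Apc than in WT. Of 6 stem cell markers, Lgr5, Ascl2, Smoc2 and Axin2 were called higher and Olfm4 lower. Of 7 epithelial markers, Krt18 was called higher (mean 517 FPKM in Apc, 199 in WT) and Vil1 lower (91.9 in Apc, 180 in WT). The 6 immune markers summed to 4.08 to 10.5 FPKM in Apc and 2.09 to 3.73 in WT. Of the 3 that were tested, Cd68 was called higher in Apc than in WT (mean 6.24 against 0.780 FPKM), and Itgam (log2 fold change -2.54) and Lyz2 (-1.66) were called lower, while Ptprc had at most 2 counts in Apc and 24 in WT. Markers of several cell types thus moved with the Apc group, and their part in the results on the members was not tested. In bulk RNA, fewer cells of a type cannot be told apart from less RNA per cell.

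Of the ligand genes, 4 lie in 1 cluster on chromosome 5 of GRCm38. Epgn (91027464 to 91035215), Ereg (91074622 to 91093646) and Areg (91139599 to 91148432) are on the plus strand and Btc (91357261 to 91402994) is on the minus strand, within 376 kb that hold no other protein-coding gene. Neighbours in the cluster had very unequal transcript levels, and the 250 bases before the RefSeq start (GRCm38.p6) of the most abundant ligand gene, Areg, are shown with those of Epgn and Btc. Capitals mark matches to the searched motifs, which were TGACGTCA (the cAMP response element), TGANTCA (AP-1), CTTTGAT (TCF/LEF) and TATAAA (the TATA box), each on both strands and with no overlap between matches here.
Areg, chr5:91139349-91139598, plus strand: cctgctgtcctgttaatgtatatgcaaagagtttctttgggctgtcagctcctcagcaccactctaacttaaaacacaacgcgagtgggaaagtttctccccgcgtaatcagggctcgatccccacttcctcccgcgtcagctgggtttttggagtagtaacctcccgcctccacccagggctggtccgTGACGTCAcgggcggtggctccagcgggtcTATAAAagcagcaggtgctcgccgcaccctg
Epgn, chr5:91027267-91027516, plus strand: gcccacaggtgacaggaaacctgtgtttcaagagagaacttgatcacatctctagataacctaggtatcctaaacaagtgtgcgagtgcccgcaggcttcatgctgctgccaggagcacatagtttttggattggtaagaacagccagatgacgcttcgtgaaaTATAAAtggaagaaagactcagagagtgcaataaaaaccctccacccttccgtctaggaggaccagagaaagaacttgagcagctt
Btc, chr5:91402995-91403244, minus strand: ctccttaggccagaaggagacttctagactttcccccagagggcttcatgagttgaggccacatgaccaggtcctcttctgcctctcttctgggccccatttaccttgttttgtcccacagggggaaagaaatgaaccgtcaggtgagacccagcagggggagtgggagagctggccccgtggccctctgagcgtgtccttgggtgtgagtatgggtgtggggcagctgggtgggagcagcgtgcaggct
The Areg window held TGACGTCA from 61 to 54 bases before the start, a palindrome found in 1.55% of 32851 mouse promoter windows of this length. Areg also held TATAAA from 31 to 26 bases before the start and Epgn held it from 86 to 81 bases before, and 12.4% of all windows hold that motif. The Epgn window ends at 91027516, past the gene start given above (91027464), so its distances hold for the RefSeq start only. Measured from that gene start, its TATAAA would lie closer, and the 2 positions are not compared here. No searched motif was found in the Btc window. TGANTCA, in 6.75% of windows, and CTTTGAT, in 3.21%, were found in none of the member promoters in the table. The Areg window had 15 CpG dinucleotides, Epgn 5 and Btc 4, with a median of 6 over all windows. The matches describe letters only, and nothing in these data bears on binding there.

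Levels were compared between genes as FPKM, a fragment count scaled to transcript length and library size that the authors estimated with cufflinks. In WT organoids Areg, which encodes amphiregulin, was the most abundant of the 10 genes, with 47.6 ± 15.99 FPKM (SD, n = 5). Erbb3 (36.4 ± 3.60) and Erbb2 (29.6 ± 2.66, both SD, n = 5) followed, and the library ranges of these 3 neighbours in the order overlapped. Btc (11.1), Tgfa (8.94), Egfr (5.32) and Hbegf (3.88) made a middle tier, in which Btc overlapped Tgfa and Egfr overlapped Hbegf. Tgfa and Egfr did not overlap in WT. Ereg (0.298), Egf (0.194) and Epgn (0.0344) were at the bottom in every group. The receptor that binds the ligands was thus the least abundant of the 3 receptor transcripts in each group, with mean FPKM of 5.32 in WT, 8.80 in Apc and 5.43 in P-Rspo3.

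**Figure D1:**
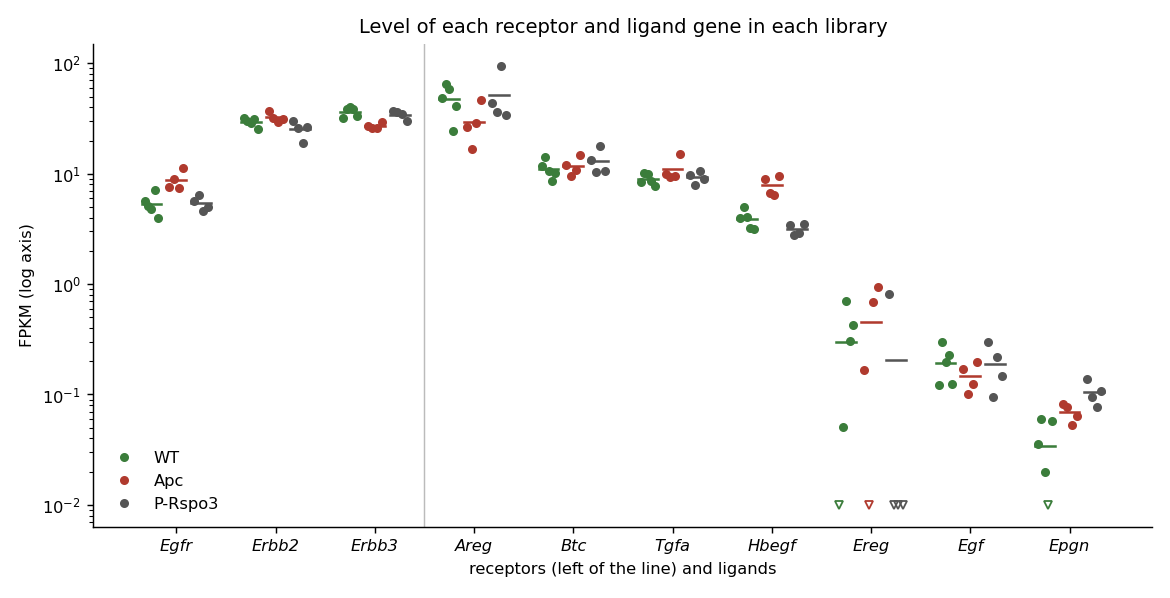
FPKM on a log axis for each receptor gene (left of the vertical line) and ligand gene in each library of WT (green), Apc (red) and P-Rspo3 (grey), with the group mean as a bar and open triangles for values below 0.01. Egfr and Hbegf in Apc lie above the other groups, Erbb3 in Apc lies below them, and Ereg spreads from 0 to 0.947 with no separation of the groups.

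The question of the first comparison was how the family differs between Apc organoids and WT. At a Benjamini-Hochberg adjusted p under 0.05 in edgeR's quasi-likelihood test and a log2 fold change beyond 1, none of the 9 tested members was called in either direction, while 12.2% of all 16749 genes tested were called higher and 14.1% lower. At an unadjusted p under 0.05 there were 4 of the 9 members, beside 10513 of all 16749 genes. DESeq2 with the same fold change threshold also called 0 members. By the adjusted p alone, Egfr and Hbegf were higher and Erbb3 and Areg lower, which is 22.2% of the tested members in each direction beside 30.0% and 29.0% of all genes. The share of members that moved was therefore not above the background in this comparison, and the changes were modest in size. Their median log2 fold change was -0.17, against 0.00058 over all genes tested.

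Egfr, the receptor of all these ligands, had an FPKM of 5.62, 5.10, 4.78 and 7.12 in WT lines 1, 2, 5 and 6 and 3.98 in the dox-naive library. Apc lines 1, 2, 5 and 6 had 7.62, 8.97, 7.43 and 11.2. The lowest Apc library lay above the highest WT library, WT line 6, and line 6 was also the highest of the Apc libraries. On counts Egfr rose by a log2 fold change of 0.56 (standard error 0.11; the quasi-likelihood test of edgeR gave a Benjamini-Hochberg adjusted p = 0.0015), or 1.48-fold, and all 4 lines were higher after deletion. CPM are counts scaled to the library total as adjusted by TMM, edgeR's normalization between libraries. Within lines the difference of log2 CPM ran from 0.44 to 0.65, the narrowest span of any member.

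Erbb3, a neuregulin receptor, had 31.9, 38.5, 40.1 and 38.2 FPKM in WT lines 1, 2, 5 and 6 and 33.2 in the dox-naive library. The Apc lines had 27.0, 25.9, 25.8 and 29.7 in the same order. The groups again did not overlap, with every Apc library below every WT library. Erbb3 fell by 0.72 on the log2 scale of counts (standard error 0.091, adjusted p = 5.3e-05, same test), and within lines by 0.49 to 0.98. Erbb2, the shared partner, had FPKM of 25.3 to 32.3 in WT and 29.3 to 37.3 in Apc, and these ranges overlapped. Its log2 fold change of counts was -0.17 (standard error 0.099, adjusted p = 0.175, same test), and log2 CPM after TMM was lower in 4 of 4 lines. On the log2(FPKM + 1) scale, which had no TMM, the fold change was 0.13 (limma, adjusted p = 0.24). On that scale the median of all genes was 0.17, and the sign of the Erbb2 difference depends on the scale.

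Hbegf, the heparin-binding ligand, had an FPKM of 3.94, 4.98, 4.06 and 3.26 in WT lines 1, 2, 5 and 6 and 3.17 in the dox-naive library. The Apc lines had 8.99, 6.76, 6.47 and 9.47. All Apc libraries were above all WT libraries, but by unequal amounts, and the order of the lines differed between the 2 groups. Hbegf rose by a log2 fold change of 0.75 (standard error 0.17, adjusted p = 0.0031, edgeR's quasi-likelihood test), or 1.68-fold. Within lines the log2 CPM difference was 0.94 in line 1, 0.17 in line 2, 0.34 in line 5 and 1.29 in line 6, so each of 4 lines was higher while the size differed widely. Hbegf (chromosome 18, 36504927 to 36515805, minus strand) lies apart from the ligand cluster.

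Areg was the least uniform of the members whose adjusted p passed. It had an FPKM of 48.6, 65.1, 59.0 and 24.2 in WT lines 1, 2, 5 and 6 and 41.3 in the dox-naive library, and 26.8, 16.6, 28.7 and 46.5 in the Apc lines. The groups overlapped because line 6 was both the lowest WT library and the highest Apc library. Areg fell by 0.97 on the log2 scale (standard error 0.32, adjusted p = 0.024, edgeR's quasi-likelihood test), in 3 of 4 lines. The within-line differences of log2 CPM were -1.07, -2.24 and -1.36 in lines 1, 2 and 5 and 0.67 in line 6. With the line as a replicate block the log2 fold change was -1.03 and the adjusted p 0.080. Without WT line 2 or WT line 5 the adjusted p was 0.057 and 0.053, and without Apc line 1, 2 or 5 it was 0.058, 0.059 and 0.057. Without Apc line 6 or WT line 6 the fall grew to -1.26 and -1.14 and passed the fold change threshold.

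**Figure D2:**
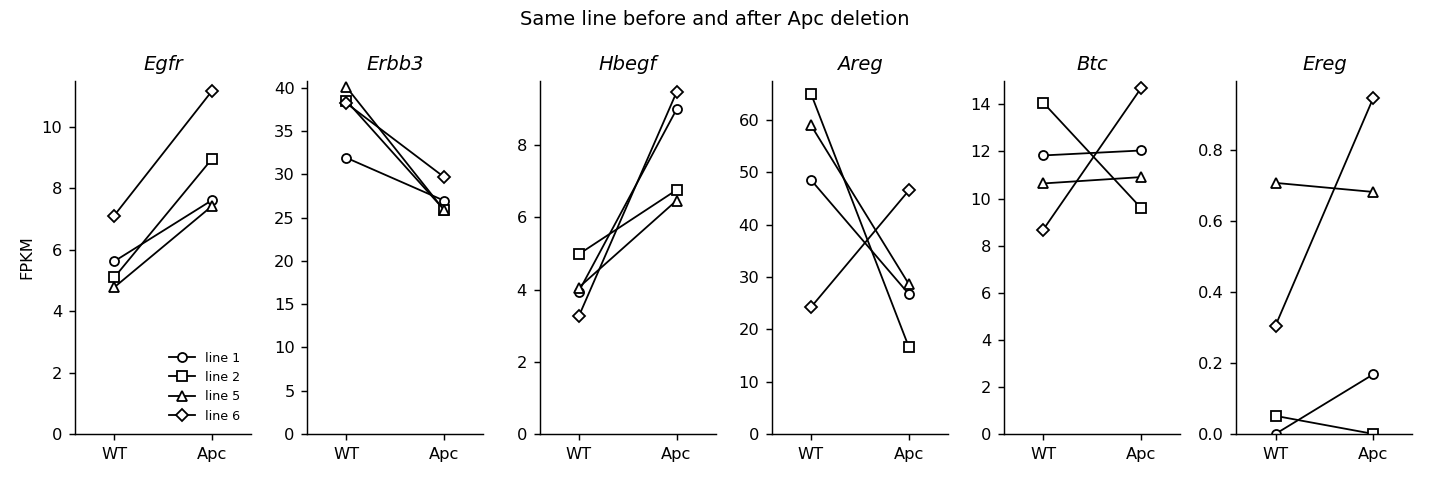
FPKM of 6 members in the same numbered line as WT and as Apc, with 1 marker shape per line and every axis starting at 0. Egfr and Hbegf go up and Erbb3 goes down in 4 of 4 lines, while line 6 (diamonds) goes up for Areg, Btc and Ereg where line 2 (squares) goes down.

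The remaining ligands did not pass the test. Btc, encoding betacellulin, had 8.68 to 14.1 FPKM in WT and 9.60 to 14.7 in Apc, with a log2 fold change of counts of -0.19 (standard error 0.16). Tgfa had 7.68 to 10.1 FPKM in WT and 9.39 to 15.2 in Apc, with -0.02 (standard error 0.14). Both take a positive sign on the FPKM scale, 0.08 for Btc and 0.25 for Tgfa at log2(FPKM + 1). Egf itself was barely transcribed, with 26 to 61 counts in WT and 21 to 51 in Apc and a log2 fold change of -0.70 (standard error 0.32, adjusted p = 0.088, edgeR's quasi-likelihood test). The antisense genes Gm42697 and 6330410L21Rik cover 5.38% and 4.43% of its exon bases, and as the strand setting of the counting is not given in the sources used here, some of these counts may be theirs.

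Ereg, encoding epiregulin, was present in some libraries and missing in others of the same group. In WT lines 1, 2, 5 and 6 and the dox-naive library it had 0, 7, 83, 43 and 52 counts. The Apc lines had 24, 0, 92 and 140 counts in the same order. P-Rspo3 15d had 111 counts, whereas 4d and M had 0 and F had 1. Within each group, therefore, libraries ran from 0 or 1 count to over 80. The log2 fold change was 0.30 with a standard error of 1.10 for Apc against WT, so a change of several fold in either direction was not detectable. Epgn, encoding epigen, had 1 to 5 counts in WT, 3 to 5 in Apc and 5 to 8 in P-Rspo3, and it was the 1 member that did not pass the filter on low FPKM and was not tested.

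On log2 CPM after TMM, line 6 was the only line in which Areg, Btc and Tgfa were higher in Apc than in WT. For Btc the difference was -0.21, -0.84 and -0.28 in lines 1, 2 and 5 and 0.52 in line 6, and for Tgfa it was -0.03, -0.34, -0.38 and 0.52. Ereg did not follow this, with 3.43 in line 1, -2.35 in line 2, -0.36 in line 5 and 1.37 in line 6. Egf was lower in line 6 (-0.39), and Hbegf, as given above, was higher in all 4 lines. On the FPKM scale, of Areg, Btc and Tgfa only Areg was higher in Apc in line 6 alone. Btc was also higher in line 1 (11.8 in WT, 12.0 in Apc) and line 5 (10.6 and 10.9), and Tgfa in line 1 (8.37 and 9.95). Areg and Btc are neighbouring protein-coding genes of the cluster, but Tgfa and Hbegf are on other chromosomes.

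For P-Rspo3 against WT, no member was called in either direction in edgeR's quasi-likelihood test, and 0 of 9 had an adjusted p under 0.05. At an unadjusted p under 0.05 there was 1 of 9, Erbb2, beside 2159 of all 15992 genes, and DESeq2 called 0 members. Of all 15992 genes tested, 0.00625% (1 gene) were called higher and 0.0% lower, and a count of 0 members is near this background. The background itself moved with the fit, since DESeq2 called 55 genes higher and 173 lower and edgeR called 166 and 100 without the dox-naive library, while no member was called in either fit. Egfr had 5.72, 6.41, 5.02 and 4.57 FPKM in 15d, 4d, M and F, within the WT range, and a log2 fold change of -0.02 (standard error 0.12). Erbb3, with 36.9, 35.9, 29.8 and 35.1 FPKM, had -0.09 (standard error 0.10). Hbegf, with 3.42, 2.80, 3.50 and 2.94 FPKM, had -0.31 (standard error 0.16, adjusted p = 0.42, edgeR's quasi-likelihood test). Erbb2 had -0.23 (standard error 0.10, adjusted p = 0.36) and was lowest in F, at 19.1 FPKM, where the other P-Rspo3 libraries had 26.2 to 29.8.

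Ereg had a log2 fold change of -0.55 (standard error 1.38) in P-Rspo3 against WT, and -6.34 without P-Rspo3 15d (adjusted p = 0.27, edgeR's quasi-likelihood test), where the remaining P-Rspo3 libraries had 0 or 1 count and the fitted size depends on the prior count. Areg in P-Rspo3 had 43.7, 36.0 and 34.2 FPKM in 15d, 4d and M and 94.9 in F, above every other library of the series. Its log2 fold change against WT was 0.15 (standard error 0.36) with F and -0.34 (adjusted p = 0.60, edgeR's quasi-likelihood test) without it, so F alone set the sign. F was also the highest P-Rspo3 library for Btc (18.0 FPKM) and Tgfa (10.6 FPKM), the lowest for Egfr and Erbb2, and near the lowest for Hbegf. The standard errors in this comparison were 0.12 for Egfr and 0.10 for Erbb3, and wider for Areg (0.36), Egf (0.38) and Ereg (1.38). An adjusted p under 0.05 took far more than 1 standard error here. Socs4, a gene outside the family, had a log2 fold change of 0.27 (standard error 0.067) with an adjusted p of 0.14 in edgeR's quasi-likelihood test. Whether a change of the size seen in Apc (0.56 for Egfr, -0.72 for Erbb3) would have passed was not tested.

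The third comparison set Apc against P-Rspo3, both without RSPO1. It uses the same Apc libraries as the first, so the 2 are not independent. Hbegf was called higher and Areg lower, which is 11.1% of the 9 members tested in each direction beside 13.4% of all 16456 genes called higher and 13.3% lower. By the adjusted p alone the members were Egfr and Hbegf (higher) and Erbb3 and Areg (lower), 22.2% in each direction beside 28.7% and 27.7% of all genes. The share of members called was again not above the background.

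**Figure D3:**
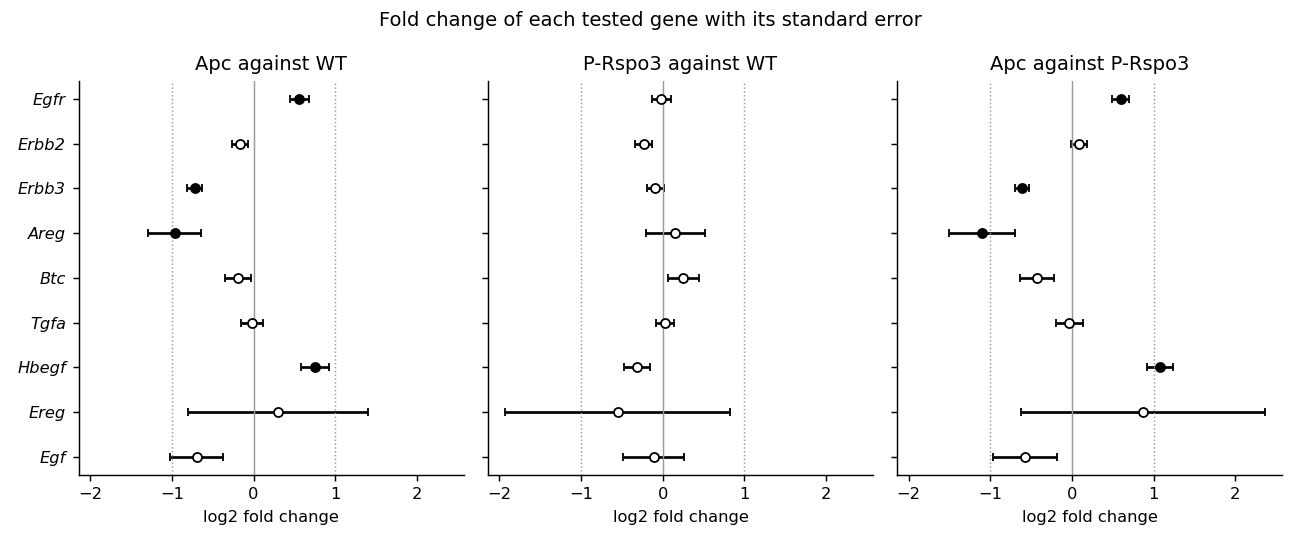
Log2 fold change of counts with its standard error for the 9 tested members in 3 comparisons from edgeR's quasi-likelihood test, with filled points for an adjusted p under 0.05 and dotted lines at -1 and 1. The panels for Apc against WT and Apc against P-Rspo3 have filled points for Egfr, Erbb3, Areg and Hbegf, and the panel for P-Rspo3 against WT has none.

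Hbegf in every Apc library (6.47 to 9.47 FPKM) was above every P-Rspo3 library (2.80 to 3.50 FPKM). Its log2 fold change was 1.08 (standard error 0.15, adjusted p = 0.00028, edgeR's quasi-likelihood test), or 2.11-fold, and lay close to the fold change threshold, falling to 0.99 without Apc line 6. Egfr rose by 0.59 (standard error 0.10, adjusted p = 0.0008) and its groups did not overlap. Erbb3 fell by 0.61 (standard error 0.088, adjusted p = 0.00028), with Apc libraries up to 29.7 FPKM and P-Rspo3 libraries from 29.8 FPKM, a gap smaller than the spread of either group.

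Areg was lower in Apc by 1.10 on the log2 scale (standard error 0.40, adjusted p = 0.041, edgeR's quasi-likelihood test), with overlapping libraries. This call rested on single libraries. Without P-Rspo3 F the log2 fold change was -0.61 (adjusted p = 0.11), and without Apc line 1, 2 or 5 the adjusted p was 0.089, 0.093 and 0.086. On log2(FPKM + 1) it was -0.75 (limma, adjusted p = 0.12). For Ereg in this comparison the log2 fold change was 0.87 (standard error 1.50), but without P-Rspo3 15d, its only P-Rspo3 library above 1 count, it was 6.72 with an adjusted p of 0.016. Btc had -0.43 (standard error 0.21), Egf -0.57 (0.39), Erbb2 0.08 (0.096) and Tgfa -0.03 (0.17), none of which passed.

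The make-up of the family was also described per library as each gene's share of the summed FPKM, of the 3 receptors and of the 7 ligands separately. Of the receptor sum, Egfr took 7.42% ± 1.24 (SD, n = 5) in WT, 12.9% ± 2.12 (SD, n = 4) in Apc and 8.30% ± 0.728 (SD, n = 4) in P-Rspo3. Erbb3 took 51.1% ± 3.38 in WT, 39.7% ± 1.91 in Apc and 52.9% ± 4.83 in P-Rspo3 (SD over the same libraries). Neither share overlapped between Apc and the other groups, while the receptor sum itself stayed between 58.8 and 76.6 FPKM over all 13 libraries. Erbb2 was the most abundant receptor transcript in Apc on average, and Erbb3 in WT and P-Rspo3. In Apc the order of the means thus ran Erbb2, Areg, Erbb3, with overlapping ranges between neighbours.

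Of the ligand sum, Areg took 64.9% ± 6.58 (SD, n = 5) in WT, 47.3% ± 6.32 (SD, n = 4) in Apc and 64.6% ± 6.99 (SD, n = 4) in P-Rspo3. Hbegf took 5.54% ± 0.951, 13.4% ± 2.62 and 4.52% ± 1.58 in the same groups. The Hbegf share did not overlap between Apc (10.9 to 15.9%) and the other groups (2.32 to 7.19%). The Areg share of Apc (39.1 to 53.4%) touched that of WT, whose lowest library, line 6, had 53.5%. The ligand sum ranged from 42.6 to 127 FPKM and overlapped between the groups. Egf, Ereg and Epgn each stayed at or under 1.21% of it. These shares are descriptions of relative transcript level and were not tested.

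**Figure D4:**
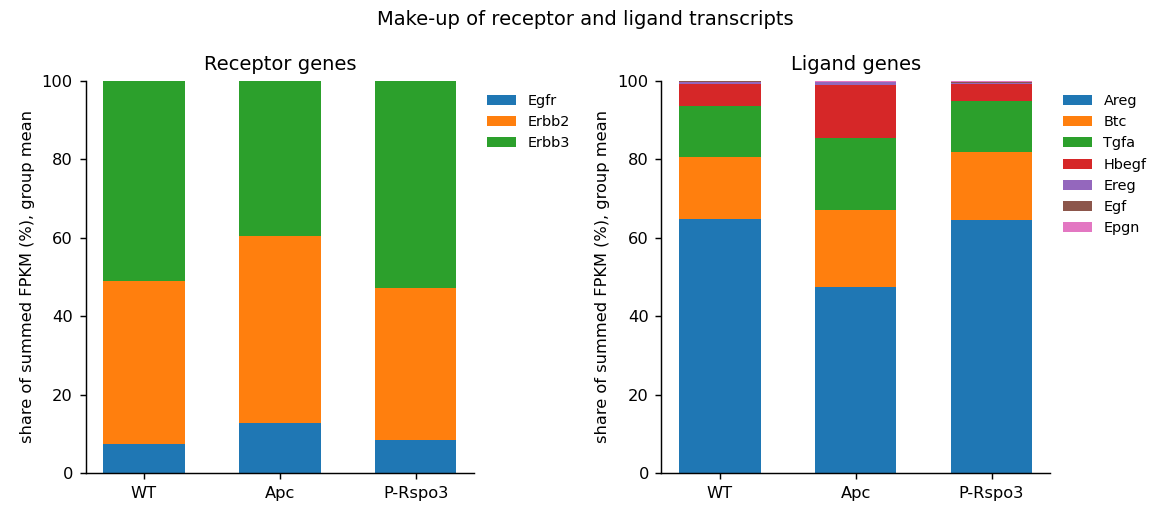
Group mean share (%) of each gene in the summed FPKM of the receptor genes (left) and ligand genes (right) for WT, Apc and P-Rspo3. In Apc the Egfr and Hbegf segments are larger (12.9% and 13.4%) and the Erbb3 and Areg segments smaller (39.7% and 47.3%) than in WT.

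The other genes of the pathway were taken from lists by role. ERBB4, the fourth receptor, had 0 counts of its gene Erbb4 in all 13 libraries, and a count of 0 allows at most 3 counts at these totals, a limit that covers counting error only. The neuregulin genes Nrg1, Nrg2 and Nrg3 had at most 2 counts in any library. Nrg4, a further neuregulin, was the exception. It had 4.11, 3.84, 5.08 and 4.21 FPKM in WT lines 1, 2, 5 and 6 and 5.72 in the dox-naive library, but 0.858, 1.05, 0.721 and 0.990 in the Apc lines. P-Rspo3 libraries 15d, 4d, M and F had 2.44, 2.99, 2.29 and 5.12 FPKM. Every Apc library was thus below every library of the other groups, and Nrg4 fell by 2.32 on the log2 scale against WT (standard error 0.23, adjusted p = 8.2e-06, edgeR's quasi-likelihood test) and fell by 1.99 against P-Rspo3 (standard error 0.33, adjusted p = 0.00071). Against WT, P-Rspo3 had -0.32 (standard error 0.30).

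Among 11 genes of ligand shedding and transport, 8 were tested in Apc against WT, 2 were called higher and none lower, beside 12.2% and 14.1% of all genes tested. With the adjusted p alone 6 were higher and none lower, beside 30.0% and 29.0% of all genes, and the median log2 fold change was 0.36 against 0.00058 over all genes. Mmp7, the matrilysin protease that is also a Paneth cell marker, had 28.5 to 57.1 FPKM in WT and 88.4 to 198 in Apc, and rose by 1.74 (standard error 0.26). Rhbdf1, which encodes the iRhom1 partner of ADAM17, had 12.0 to 16.7 FPKM in WT and 30.8 to 44.5 in Apc, and rose by 1.05 (standard error 0.10, 2.07-fold). Adam17 and Adam10 moved less, with a log2 fold change of 0.51 (standard error 0.068) and 0.36 (standard error 0.077), both with an adjusted p that passed. Their groups did not overlap. Adam9 of the same list had -0.02 (standard error 0.093) and did not pass. Adam17, Adam10 and Adam9 were singled out after their values were seen.

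Of 15 genes that restrain or turn over the receptors, all tested, 2 were called higher and 1 lower in Apc against WT, and with the adjusted p alone 4 were higher and 5 lower. The shares of all genes tested were 12.2% and 14.1% for the calls and 30.0% and 29.0% for the adjusted p alone, so these counts are near or under the background. The median was 0.07. Lrig1, a transmembrane inhibitor that promotes receptor degradation and marks intestinal stem cells, had 28.8 to 38.9 FPKM in WT, 90.1 to 108 in Apc and 23.5 to 34.3 in P-Rspo3, a rise of 1.28 against WT (standard error 0.098). Its relative Lrig3 went the other way, from 7.77 to 9.43 FPKM in WT to 0.620 to 0.952 in Apc, a fall of 3.80 (standard error 0.13, adjusted p = 8.6e-09, edgeR's quasi-likelihood test), or 13.9-fold. Socs5, an adaptor of a ubiquitin ligase for EGFR, rose by 1.55 (standard error 0.14) from 1.30 to 2.03 FPKM in WT to 5.22 to 6.11 in Apc. Errfi1, the feedback inhibitor induced by EGFR signalling, had -0.12 (standard error 0.089) and did not pass. Socs4 and Eps15, lower on counts by the adjusted p alone, had ratios of mean FPKM of 1.06 and 1.04, on a scale on which the median of all genes also lay higher (0.17 at log2(FPKM + 1)). Errfi1, Socs4 and Eps15 were also named with their values known.

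None of the 16 adaptors and proximal effectors passed the fold change threshold, 5 were higher and 2 lower by the adjusted p alone beside 30.0% and 29.0% of all genes, and the median was 0.0096 against 0.00058 over all genes tested. Those furthest from 0 were Plcg1, phospholipase C gamma, with 0.80 (standard error 0.098) and Pik3r1, the regulatory subunit of PI3 kinase, with -0.68 (standard error 0.10). They were picked by size after the values were seen. For P-Rspo3 against WT no gene of any of these lists had an adjusted p under 0.05. In Apc against P-Rspo3, which shares the Apc libraries with the comparison above, the log2 fold change was 1.29 for Rhbdf1, 1.91 for Mmp7, 1.49 for Lrig1, 1.23 for Socs5 and -4.03 for Lrig3, and each was called.

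**Figure D5:**
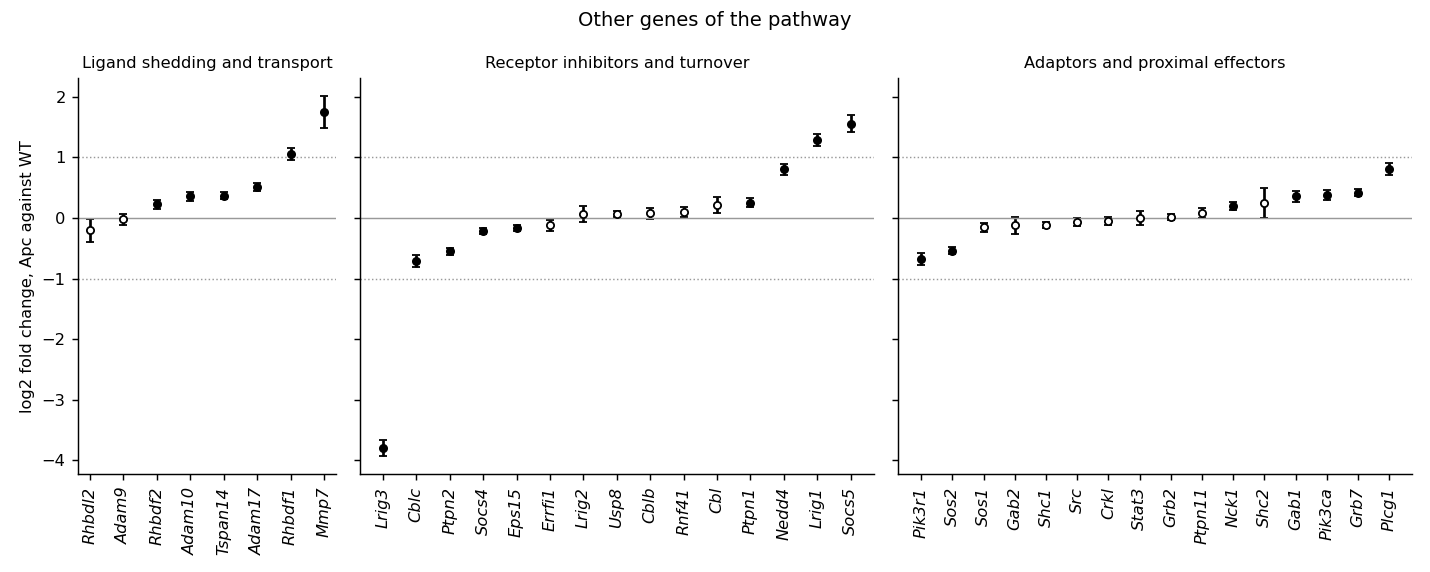
Log2 fold change of counts (Apc against WT, edgeR's quasi-likelihood test) with its standard error for the tested genes of 3 lists, sorted within each list, with filled points for an adjusted p under 0.05 and dotted lines at -1 and 1. Lrig3 lies at -3.80, Lrig1, Socs5, Rhbdf1 and Mmp7 lie above 1, and the adaptors all lie between the dotted lines.

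The genes whose pattern was most like that of the 2 called members were sought over the 13 libraries among 12149 genes, by Pearson's r of log2 CPM. The libraries share lines and groups, so r describes these libraries only. Hbegf was most like Epha2 (0.97), the ephrin receptor, Tgfbr2 (0.96), a TGF-beta receptor, and Tbx3 (0.95), a T-box transcription factor. Areg was most like Zfand2a (0.93), Tnip1 (0.92) and Prmt2 (0.92). Tnip1 encodes an inhibitor of NF-kappaB signalling, and Zfand2a is a stress-inducible zinc finger gene.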

How the data were processed

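RNA sequencing of mouse intestinal organoids was analysed in 13 grouped libraries (5 WT, 4 Apc, 4 P-Rspo3). Groups came from the labels, and 2 libraries, titled LIPO and NAIVE_F, stayed ungrouped and were used in an alternative and as single values. Reads were aligned by the authors with STAR to the GRCm38 build, and the deposited counts per Ensembl gene came from HTSeq 0.6.0 without normalization. The authors also deposited FPKM from Cufflinks 2.2.1, in which isoforms are weighted. TMM was applied here to the counts and not to the FPKM. FPKM and counts of a gene need not move together, and the reason for their differences was not tested. The strand setting and annotation release are not given in the sources used here. Symbols and coordinates came from GENCODE (42462 of 43629 genes), and promoter sequences from RefSeq (GRCm38.p6) for 7 of the 10 members.

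The test was edgeR's (version 4.0.16, R 4.3.3; TMM, glmQLFit and glmQLFTest at their defaults), for each pair of groups separately, without covariates and on genes that reached 0.1 FPKM in 4 or more libraries. P-values were adjusted over all genes tested by Benjamini-Hochberg, and a call needed an adjusted p under 0.05 with a log2 fold change beyond 1 in either direction. The standard error is the absolute log2 fold change divided by the square root of the F statistic. Log2 CPM were taken after TMM over the 13 grouped libraries (prior count 2). Likeness was Pearson's r of log2 CPM among genes whose mean FPKM was 1 or more, for members called in a comparison. All members were named, and of each list the called genes with the 2 largest and 2 smallest log2 fold changes. The members and lists were chosen with earlier results of these data known. The scripts were tested on simulated data. Total counts of 28902729 to 35528495 per grouped library limit precision for genes of few counts, and limits from counts cover counting error only. No 2 libraries of a group agreed within sampling noise (lowest chi-square per gene 22.4), and the files name no sequencing batch.

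WT and Apc libraries of the same number are the same line by their labels. After subtraction of group means, same-line libraries correlated at a median of 0.094 over 4 pairs (0.016 to 0.20), and the 12 pairings across lines at -0.031. The alternatives were DESeq2 size factors, DESeq2 1.42.0, the newer form of edgeR's test, other FPKM filters, limma 3.58.1 on log2(FPKM + 1) and log2(FPKM + 0.1), 1 fit of the 3 groups, the adjusted p alone, each library left out, WT of flox lines only, the ungrouped libraries added by genotype, and the line as a replicate block.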

Additional observations from a re-analysis of the deposited data

Results flagged for a closer look

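Dixon's test at its 95% critical value was applied to the 30 groups of values given by 10 members in 3 groups of libraries. In 3 of them 1 library lay apart from the others, where chance marks about 0.05 of groups. Areg had 94.9 FPKM in P-Rspo3 F and 34.2 to 43.7 in the other P-Rspo3 libraries. Ereg had 0.819 FPKM in P-Rspo3 15d and 0 to 0.00815 in the others of that group. Tgfa had 15.2 FPKM in Apc line 6 and 9.39 to 9.95 in the other Apc lines. The report gives the fold changes of Areg and Ereg in both comparisons of P-Rspo3 without these libraries. Without Apc line 6 Tgfa had a log2 fold change of -0.20 against WT and of -0.20 against P-Rspo3.

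Of the 2 ungrouped libraries, the one titled NAIVE_F, whose genotype field names P-Rspo3, had 35.1 FPKM of Erbb2, above the WT libraries (25.3 to 32.3). This difference was not tested. Its Areg (30.6 FPKM), Egfr (4.35 FPKM) and Hbegf (4.12 FPKM) lay within the WT ranges.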

How the results depend on the processing

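Egfr, Erbb3 and Hbegf kept their direction and an adjusted p under 0.05 in all 20 alternatives for Apc against WT and all 17 for Apc against P-Rspo3. Areg kept its direction in these but its adjusted p in only 12 of 20 and 10 of 17 alternatives. By the adjusted p alone, 2 members were higher and 2 lower in both comparisons of Apc. Against WT, limma on log2(FPKM + 0.1) called 1 higher (Hbegf, 1.01), WT of flox lines only called 1 lower (Areg), and the fits without 1 library called 0 higher and from 0 to 1 lower. Against P-Rspo3, the fits without 1 library called from 0 to 2 higher and from 0 to 1 lower, and both limma scales called 0 lower. Adding the ungrouped library NAIVE_F alone, by its genotype field, called 0 in either direction (Hbegf 0.99, Areg -0.98). With the line as a replicate block 0 members were called in either direction, as without it, and the block moved only the adjusted p of Areg across 0.05 (0.080). Members that changed sign in an alternative did not pass the test in that comparison in any fit. For Apc against WT, both limma scales gave 0.13 for Erbb2, 0.085 and 0.092 for Btc and 0.25 and 0.27 for Tgfa. Adding the ungrouped library LIPO alone, by its genotype field, gave 0.036 for Tgfa. Against P-Rspo3 limma gave 0.21 and 0.22 for Tgfa. For P-Rspo3 against WT, Egfr had 0.035 and 0.043 on the limma scales and 0.060 with the ungrouped libraries. Over the fits without 1 library, Ereg ran from -0.36 to 0.92 and Tgfa from -0.20 to 0.047 in Apc against WT, Tgfa from -0.20 to 0.061 in Apc against P-Rspo3, and Egfr from -0.075 to 0.075, Egf from -0.42 to 0.12, Areg from -0.34 to 0.31 and Tgfa from -0.072 to 0.11 in P-Rspo3 against WT. The cause of these sign changes was not tested.

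Counts over all genes depended on the tool. Of the genes called in Apc against WT 46.4% were higher, and with limma on log2(FPKM + 0.1) 60.0%, where the median of all genes was 0.28. In Apc against P-Rspo3 the shares were 50.3% and 61.3%. Called higher and lower were 2048 and 2364 against WT, 1415 and 1132 with limma on log2(FPKM + 1), and 1184 and 1650 at an FPKM of at least 1. Against P-Rspo3 they were 2209 and 2183, 1429 and 1122, and 1264 and 1533. For P-Rspo3 against WT they were 1 and 0 against 55 and 173 with DESeq2, 11 and 63 in 1 fit of the 3 groups and 166 and 100 without the dox-naive library. The low counts of Ereg, Egf and Epgn limit what can be seen of them.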
